A study of Homo sapiens with 12 samples.

Results

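FCER2 encodes CD23, the low-affinity IgE receptor of B cells, and FCRL1, FCRL2, FCRL3, FCRL5 and FCRLA encode Fc receptor-like proteins. These 6 genes were chosen by name with their read numbers in these samples already known, out of 29326 genes with annotated introns in the deposited splicing table. The selection used the exon-exon junction reads of each gene in every sample, so the spliced-read levels of the 6 genes are given as a description, without a test. The table held 241 rows for the 6 genes among 721551 rows in all, and 120 of the 241 had 10 or more reads in all samples of at least 2 groups (378988 of all rows did). These 120 rows were all 38 rows of FCER2, all 16 of FCRLA, 40 of 55 of FCRL3 and 26 of 52 of FCRL5, with 0 of 41 for FCRL1 and 0 of 39 for FCRL2. Around that minimum, the nearest FCRL3 rows had 10.0 reads just inside and 9.8 just outside, and the nearest FCRL5 rows had 10.9 and 8.0.

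The samples were 12 cultures of MEC1, an established human B-cell line from chronic lymphocytic leukemia, in 4 groups of 3. The K700E groups carried SF3B1 c.2098A>G together with c.2106G>A in lines 41, 38 and 15b (replicates 1, 2 and 3), and the WT groups were lines a and b, labelled only as SF3B1 WT, and line 34b, which carried c.2106G>A alone. Each line received H3B-8800 at 75 nM, or DMSO, over 6 h. H3B-8800 is a splicing modulator directed at SF3B, the complex that contains SF3B1. The 4 groups were therefore K700E with H3B-8800, K700E with DMSO, WT with H3B-8800 and WT with DMSO, and every line appears once in H3B-8800 and once in DMSO. Since a K700E line also differs from a WT line in its own history, the allele and the line cannot be told apart in any K700E against WT value below, and p-values between genotypes measure the spread between these lines.

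CD23 is a C-type lectin on a coiled-coil stalk that binds IgE and complement receptor CD21. It is shed from the cell surface by ADAM10 and is a surface marker of chronic lymphocytic leukemia. The FCRL proteins are immunoglobulin-domain receptors of B cells whose cytoplasmic tails carry tyrosine motifs that recruit SH2-domain proteins such as the phosphatase SHP-1 (PTPN6) or the kinase SYK, while FCRLA stays inside the cell. SF3B1 is the subunit of the U2 small nuclear ribonucleoprotein that holds the branch site of an intron, and the K700E form is known for its use of cryptic 3′ splice sites upstream of the usual ones.

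The libraries held between 45840233 and 56676172 exon-exon junction reads. Across all genes, unspliced reads made up 4.50% to 6.05% of intron-spanning reads in the H3B-8800 libraries and 1.86% to 2.43% in the DMSO libraries. Of 16 B-cell markers, 13 had a median above 1 RPM (exon-exon junction reads scaled to the total of the library), and their summed level was 5182 to 7286 RPM in K700E with H3B-8800, 5018 to 6520 in K700E with DMSO, 4191 to 5308 in WT with H3B-8800 and 4040 to 5428 in WT with DMSO. CD5, a surface antigen of chronic lymphocytic leukemia, had a median of 0. The 12 T and NK cell markers summed to 26.7 to 56.9 RPM over the 12 libraries with CD3D, CD3G, CD4 and NCAM1 at a median of 0, and the 10 myeloid markers to 2.0 to 6.9 RPM with LYZ, S100A8, FCN1 and MPO at 0.

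FCER2 lies at chr19:7688758-7702146 on the minus strand (hg38). Its level was lower in K700E than in WT lines under both treatments. It had 62.5, 135 and 102 RPM of spliced reads in K700E lines 41, 38 and 15b with H3B-8800, and 57.7, 130.5 and 106 RPM in the same lines with DMSO. WT lines a, b and 34b had 281, 291 and 449 RPM with H3B-8800 and 338, 321 and 499 RPM with DMSO. Every K700E sample was therefore below every WT sample of the same treatment, and line 41 was lowest of the K700E lines in both. Means were 99.7 ± 36.1 RPM in K700E and 340.3 ± 94.1 RPM in WT with H3B-8800, and 98.1 ± 37.0 RPM in K700E and 386 ± 97.9 RPM in WT with DMSO (SD, n = 3 each). The log2 difference, K700E minus WT, was -1.81 with H3B-8800 and -2.03 (SE 0.34) with DMSO, and the median over its 10 introns, each taken alone, was -1.82 with H3B-8800 and -2.03 with DMSO. H3B-8800 minus DMSO was 0.03 in K700E and -0.19 in WT on the log2 scale, and the difference between these 2 effects was 0.22, with an SE of 0.49 without the pairing of lines and of 0.07 with the line as a block. Line by line, FCER2 changed by 0.12, 0.05 and -0.06 in K700E lines 41, 38 and 15b and by -0.27, -0.14 and -0.15 in WT lines a, b and 34b. The median difference of the 2 effects over all 10182 genes was 0.04, and the 0.22 of FCER2 was not tested. In bulk RNA, fewer cells with a transcript and less of it per cell cannot be told apart.

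FCRL3 (chr1:157674321-157700857, minus strand), an inhibitory and activating receptor of B cells and some T cells, was higher in the K700E libraries. It had 34.4, 12.3 and 3.23 RPM in K700E lines 41, 38 and 15b with H3B-8800 and 37.2, 15.1 and 3.25 RPM with DMSO. The WT lines a, b and 34b had 0.161, 0.381 and 0.356 RPM with H3B-8800 and 0.582, 0.593 and 0.315 RPM with DMSO. Groups did not overlap between genotypes, although the K700E lines themselves spanned 3.52 log2 units with DMSO, against a median of 0.375 over 10182 genes. The read sums were 2303 in K700E and 44 in WT with H3B-8800, and 2968 in K700E and 80 in WT with DMSO. The log2 difference, K700E minus WT, was 5.26 (SE 0.93) with H3B-8800 and 4.65 with DMSO, and without both samples of line 41 it was 4.45 with H3B-8800 and 3.85 with DMSO.

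FCRL5 (chr1:157513377-157552520, minus strand), a receptor for IgG, overlapped between genotypes. It had 14.9, 4.11 and 2.32 RPM in K700E lines 41, 38 and 15b with H3B-8800 and 30.0, 6.23 and 3.08 RPM with DMSO. WT lines a, b and 34b had 2.31, 3.03 and 1.13 RPM with H3B-8800 and 3.07, 5.26 and 1.54 RPM with DMSO. Line 41 stood apart, and the other K700E lines lay within or just above the WT range. K700E minus WT was 1.51 on the log2 scale with DMSO and 0.59 without both samples of line 41. FCRL5 was lower with H3B-8800 than with DMSO in 6 of 6 lines, by -1.01, -0.60 and -0.41 in lines 41, 38 and 15b and by -0.41, -0.79 and -0.44 in lines a, b and 34b. The median over all 10182 genes was -0.22 in K700E and -0.28 in WT. With median-of-ratios size factors in place of total reads, FCRL5 changed by -0.455 in K700E and -0.279 in WT. The share of all genes lower in every line was not counted.

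FCRLA (chr1:161706972-161714352, plus strand) had the highest level per intron of the FCRL genes. It had 145, 25.3 and 39.8 RPM in K700E lines 41, 38 and 15b with H3B-8800 and 177, 31.4 and 41.1 RPM with DMSO. WT lines a, b and 34b had 32.1, 32.8 and 46.8 RPM with H3B-8800 and 35.2, 39.6 and 57.0 RPM with DMSO. Line 41 lay above the WT range and line 38 below it, and K700E minus WT with DMSO was 0.51 with all lines and -0.26 without both samples of line 41. FCRLA was lower with H3B-8800 than with DMSO in 6 of 6 lines, by -0.31 to -0.05 log2 units, while the median over all 10182 genes was -0.22 in K700E and -0.28 in WT.

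FCRL1 and FCRL2 were close to absent. FCRL1 had 3, 0 and 0 reads in K700E with H3B-8800, 8, 1 and 1 in K700E with DMSO, 0 in each WT library with H3B-8800 and 0, 1 and 0 in WT with DMSO. FCRL2 had 9, 9 and 2 reads in K700E with H3B-8800 and 54, 2 and 7 with DMSO, and between 0 and 2 reads in each WT library. A level of 0 reads in 1 library allows up to 3 reads by counting error alone, or about 0.0558 to 0.0637 RPM at the mean depth of a group. The 54 reads of FCRL2 came from line 41, which also had the highest FCRL3, FCRL5 and FCRLA.

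The order of the levels was set per annotated intron, since the genes have 4 to 16 introns. In K700E with DMSO, FCRLA had 20.8 ± 20.4 RPM per intron, FCER2 9.81 ± 3.70, FCRL3 1.24 ± 1.15 and FCRL5 0.820 ± 0.921 (SD, n = 3). Within that order FCRLA and FCER2, and FCRL3 and FCRL5, did not differ beyond their spread. In WT with DMSO the order was FCER2 at 38.6 ± 9.79, FCRLA at 10.98 ± 2.88, FCRL5 at 0.205 and FCRL3 at 0.033 RPM per intron. FCER2 and FCRL3 were thus the members whose samples did not overlap between genotypes: 1 of the 4 measured genes had every K700E sample higher and 1 had every sample lower, in both treatments. Over all 10182 genes, 23.9% had every K700E sample higher and 9.23% every sample lower with H3B-8800, and 21.2% and 10.8% with DMSO. None of the 4 genes was separated by H3B-8800 in either genotype, where 16.5% of all genes had every sample higher and 35.2% every sample lower in K700E, and 25.4% and 50.7% in WT. These shares stand beside the counts as background only, because the genes were picked with these levels known.

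**Figure D1:**
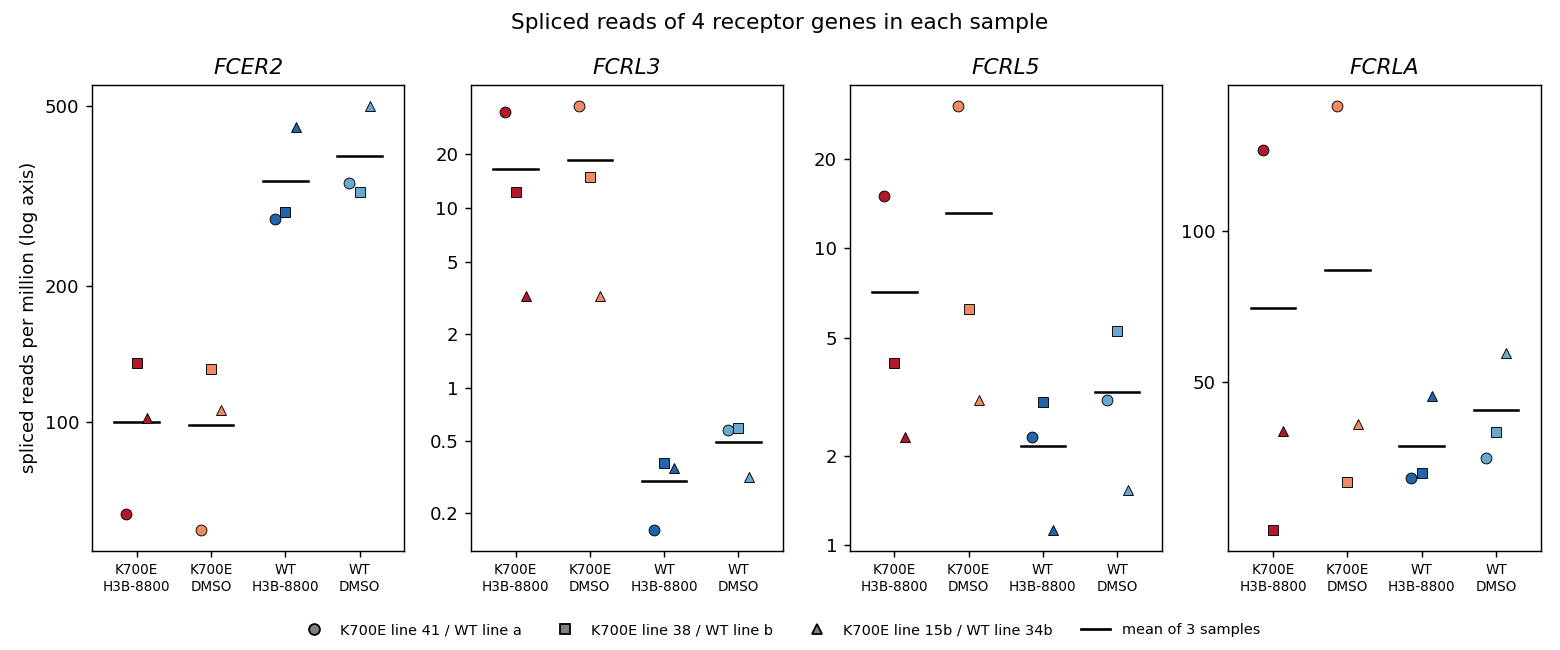
Spliced reads of FCER2, FCRL3, FCRL5 and FCRLA in RPM on a log axis, one point per library, with groups in the order K700E H3B-8800, K700E DMSO, WT H3B-8800 and WT DMSO with marker shapes for the lines and bars at the mean of 3 samples. FCER2 is lower in all K700E libraries and FCRL3 higher, while in FCRL5 and FCRLA only K700E line 41 lies clearly above the WT points.

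Genes with a pattern most like each receptor were found by the root mean square difference of log2 RPM, each gene centred on its own mean over the 12 samples, among 10182 genes. The nearest to FCER2 were WASF1 at 0.353, FAM81A at 0.377 and CRLF2 at 0.380 log2 units, where the median gene was at 1.16. FAM81A, for example, averaged 8.84 RPM in K700E with H3B-8800, 12.05 in K700E with DMSO, 25.2 in WT with H3B-8800 and 34.8 in WT with DMSO. The nearest to FCRL3 were GBP1 at 1.00, ZEB2 at 1.24 and GBP2 at 1.25, less close than those of FCER2 but far below the median of 2.68. GBP2, an interferon-inducible GTPase, averaged 74.0 and 64.9 RPM in K700E and 3.09 and 3.28 RPM in WT with H3B-8800 and DMSO. For FCRL5 they were MS4A6A at 0.529, CD86 at 0.564 and LTBP1 at 0.604 (median 1.27), and for FCRLA ADARB1 at 0.299, CTSB at 0.310 and NFATC1 at 0.331 (median 0.879). The 12 points share 6 lines, so lines rather than treatments weigh most in this likeness.

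With H3B-8800, introns of FCER2 and FCRL3 were retained more and exons of FCRL3 were included less. Retention is the percent of transcripts that keep an intron, and an event was called at an adjusted p under 0.05 together with a difference of at least 10 percentage points. In K700E, 14 of 57 tested events of the 6 genes were called, 10 introns retained more and 4 exons included less. That is 24.6%, against 30.6% of 125653 events over all genes. By type, 10 of 29 introns and 4 of 20 exons were called, where 31.5% of all introns were retained more and 38.2% of all exons included less. In WT, 4 of 25 events were called, all of them FCER2 introns, against 32.1% of all events, with 4 of 13 introns and 0 of 10 exons against 33% and 39.6%. The called shares of these genes were close to the background for introns and below it for exons. At an unadjusted p under 0.05 there were 32 events in K700E and 15 in WT. In K700E these included 20 of 29 introns and 11 of 20 exons, against 40304 of 51475 introns and 39881 of 51322 exons over all genes. In WT they were 11 of 13 introns and 4 of 10 exons, against 39851 of 50166 and 40440 of 51361.

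Of the tested FCER2 introns, 5 of 9 were called in K700E and 4 of 7 in WT. Over all genes, 31.5% of introns in K700E and 33% in WT were called as retained more. The largest change was in the 160-nt intron 6 (chr19:7697076-7697235), between the 63-nt exons 6 and 7. It was retained at 21.8%, 23.9% and 26.0% in K700E lines 41, 38 and 15b with H3B-8800 and at 3.21%, 3.29% and 3.52% with DMSO. In WT lines a, b and 34b it was at 15.4%, 22.9% and 28.1% with H3B-8800 and 3.53%, 4.13% and 4.56% with DMSO. Every H3B-8800 library was above every DMSO library, by 20.5 points in K700E (adjusted p = 3.23e-06) and 18.1 points in WT (adjusted p = 8.39e-06). From 418 to 3429 reads per library lay behind these values.

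The other called FCER2 introns behaved alike in both genotypes. Intron 4 (766 nt) was at 13.0%, 19.9% and 17.2% in K700E with H3B-8800 and 0.97%, 0.49% and 0.38% with DMSO, a difference of 16.1 points (adjusted p = 2.6e-06). Its WT values of 12.8%, 17.5% and 20.9% with H3B-8800 and 0.37%, 0.80% and 0.84% with DMSO were not tested, because the reads at its ends were unbalanced there. The reads of K700E with H3B-8800 were unbalanced too, at 7, 34 and 21 on its 5′ end and 79, 221 and 163 on its 3′ end in lines 41, 38 and 15b, so this K700E call rests mostly on reads at 1 end. It was tested because the balance filter left out an intron unbalanced in most of the samples compared, and this one was unbalanced in no more than 3 of the 6. Intron 8 (6267 nt), the longest of the gene, was at 15.2%, 18.8% and 18.5% in K700E with H3B-8800 and 2.37%, 2.45% and 2.91% with DMSO. It changed by 14.9 points in K700E (adjusted p = 2.05e-05) and by 13.7 points in WT (adjusted p = 5.91e-05). Intron 5 (228 nt) changed by 14.2 points in K700E and 12.7 in WT, and intron 3 (331 nt) by 11.1 and 11.3. In WT, intron 3 changed by 9.98 points without line 34b with H3B-8800, under the size of a call, and its adjusted p stayed below 0.05 in all 14 alternatives.

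The remaining introns changed less, with adjusted p under 0.05 in each tested case. Intron 2 (884 nt) changed by 9.39 points in K700E and 9.17 in WT, intron 7 (98 nt) by 3.45 in K700E, intron 9 (140 nt) by 3.09 and 2.67 and intron 10 (728 nt) by 1.81 and 1.62. Intron 1 (2173 nt) had almost all its exon-intron reads at its 3′ end and was not tested. Retention was thus not ordered by intron length: the 98-nt and 140-nt introns changed by 3.45 and 3.09 points and the 160-nt intron by 20.5. Summed over introns, 12.1% ± 0.58 of FCER2 intron-spanning reads were unspliced in K700E with H3B-8800 and 2.01% ± 0.11 with DMSO, against 11.2% ± 2.9 and 1.90% ± 0.41 in WT (SD, n = 3 each).

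Introns 4 to 6, which changed by 14.2 points or more in K700E, lie among the exons of the stalk. A change of this size was not particular to them. The 6267-nt intron 8, which flanks none of the 63-nt exons, changed by 14.9 points in K700E. Intron 7, which follows exon 7, changed less than introns 4 to 6. Exons 5, 6 and 7 of FCER2 are 63 nt each and encode repeats of the coiled coil, and 24 of the 63 positions are the same in all 3, with pairwise identity of 50.8% to 58.7%. They are printed from the GENCODE transcripts on hg38, 5′ to 3′ on the transcribed strand, with the bases shared by all 3 in capitals, because introns 4 to 7 flank them.
FCER2 exon 5, chr19:7697527-7697589: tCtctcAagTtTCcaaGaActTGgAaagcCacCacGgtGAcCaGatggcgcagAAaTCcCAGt
FCER2 exon 6, chr19:7697236-7697298: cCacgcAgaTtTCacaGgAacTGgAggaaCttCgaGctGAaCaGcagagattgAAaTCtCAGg
FCER2 exon 7, chr19:7697013-7697075: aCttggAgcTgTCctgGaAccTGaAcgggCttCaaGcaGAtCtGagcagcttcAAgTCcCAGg
Intron 6, which follows exon 6, is printed whole with its first and last pair of bases in capitals.
FCER2 intron 6, chr19:7697076-7697235: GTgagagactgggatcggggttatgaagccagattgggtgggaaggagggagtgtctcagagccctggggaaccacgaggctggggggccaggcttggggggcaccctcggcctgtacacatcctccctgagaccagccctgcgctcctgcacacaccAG
Of the 20 bases before its final AG, 14 are pyrimidines. The last 50 bases of intron 3, which changed by 11.1 points, show all 20 as pyrimidines.
FCER2 intron 3, chr19:7698410-7698459: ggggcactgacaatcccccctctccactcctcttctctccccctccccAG

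**Figure D2:**
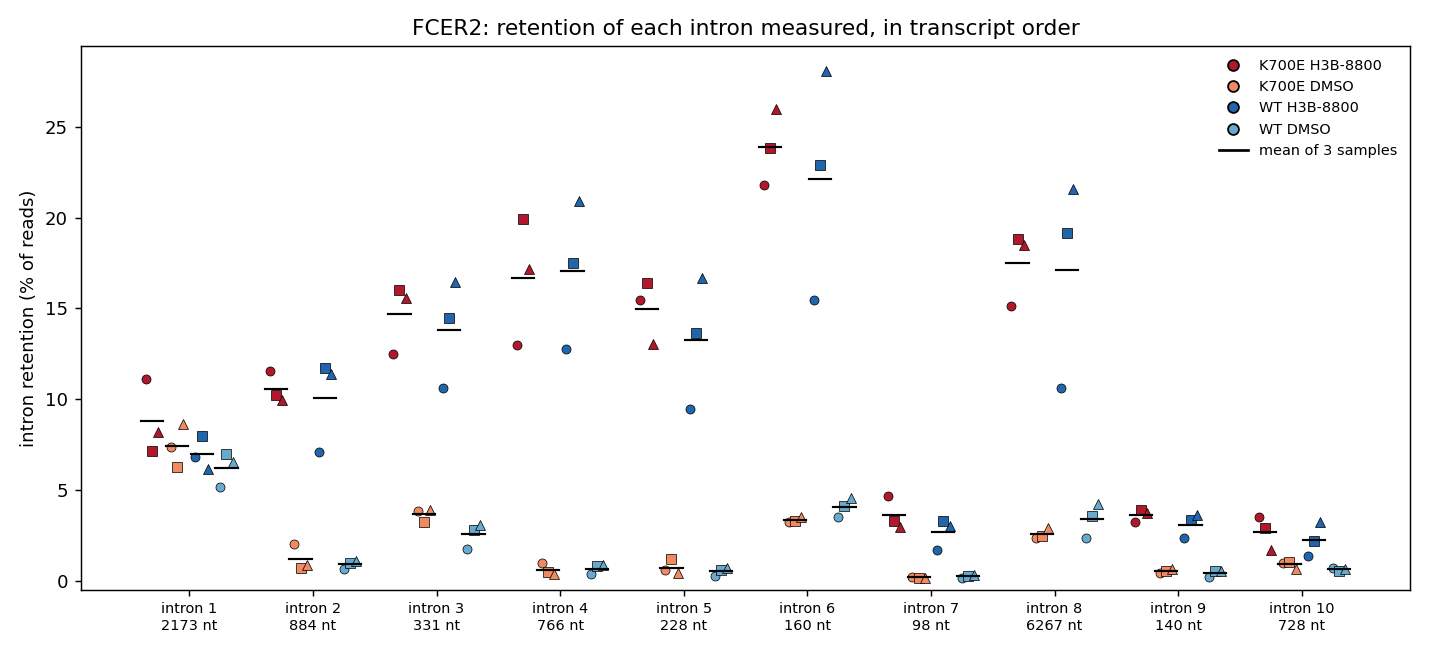
Retention of FCER2 introns 1 to 10 in percent, one point per library, by group (K700E H3B-8800, K700E DMSO, WT H3B-8800, WT DMSO). Introns 3, 4, 5, 6 and 8 lie between 9.48% and 28.1% in all H3B-8800 libraries and at 4.56% or below in all DMSO libraries, and intron 1 is drawn but was not tested.

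FCER2 exons stayed mostly included. None of the 5 tested exons in K700E was called, where 38.2% of exons over all genes were called as included less. Of these 5 FCER2 exons, 4 had an adjusted p under 0.05 and all 5 were lower with H3B-8800. The 54-nt exon 4 averaged 95.5% in K700E with H3B-8800 and 98.8% with DMSO (adjusted p = 0.000109), and 96.5% in WT with H3B-8800 and 99.4% with DMSO (adjusted p = 7.93e-06). The 63-nt exon 7 averaged 92.0% in K700E with H3B-8800 and 96.0% with DMSO (adjusted p = 0.00151), against 96.0% and 97.2% in WT (adjusted p = 0.0533). The 90-nt exon 8 averaged 95.9% and 99.4% in K700E and 97.5% and 99.6% in WT. These exons, like exons 3, 5 and 6, have lengths divisible by 3.

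An alternative 3′ splice site 22 nt upstream of FCER2 exon 3 was used in the K700E lines. With H3B-8800 it was at 4.28%, 4.58% and 5.10% in K700E lines 41, 38 and 15b and at 0.13%, 0.19% and 0.13% in WT lines a, b and 34b. With DMSO it was at 1.47%, 0.68% and 0.16% in K700E and 0.09%, 0% and 0.12% in WT. Every K700E library with H3B-8800 was above every other library, in reads of 327 to 3364 per library. The difference was 4.50 points for K700E against WT with H3B-8800 (adjusted p = 0.00604) and 3.88 points for H3B-8800 against DMSO in K700E (adjusted p = 0.00363), both under the 10 points of a call. The difference of the H3B-8800 effect between genotypes, 3.80 points, had an adjusted p of 0.775, so it was not shown that the drug effect depends on genotype. Other alternative sites of FCER2 were steady: the tandem 5′ sites of exon 1, 4 nt apart, averaged 34.1%, 35.3%, 37.4% and 37.6% in K700E with H3B-8800, K700E with DMSO, WT with H3B-8800 and WT with DMSO, with no call.

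FCRL3 could be tested in K700E alone, since its events had 0 to 9 reads in each WT library. In K700E, 9 of its 20 tested events were called, 4 of 5 exons and 5 of 11 introns. Over all genes in K700E, 30.6% of events were called, with 38.2% of exons included less and 31.5% of introns retained more. The largest tested change was in the 32-nt exon 14 (chr1:157678942-157678973), a small exon near the end of the coding sequence. It was included at 58.0%, 74.4% and 73.6% in lines 41, 38 and 15b with H3B-8800 and at 99.5%, 100% and 100% with DMSO. No library overlapped, and the difference was -31.1 points (adjusted p = 0.000396). Line 15b had 22 reads with H3B-8800 and 15 with DMSO for this exon, and line 41 had 171 and 264, so line 15b is the less precise.

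Exon 9 (279 nt) was included at 59.5%, 72.8% and 62.7% with H3B-8800 and at 89.4%, 93.8% and 73.4% with DMSO, a difference of -20.5 points (adjusted p = 0.0367). This call was lost in 6 of 14 alternatives, with adjusted p of 0.103 and 0.0921 without line 41 or 15b with H3B-8800, 0.102 without either line 41 or line 38 with DMSO, and 0.217 without both samples of line 41. Exon 5 (261 nt) was at 80.2%, 88.1% and 77.8% with H3B-8800 and 99.5%, 100% and 100% with DMSO, a difference of -17.8 points (adjusted p = 0.00026). A 155-nt form of exon 6 (chr1:157697140-157697294) changed by -11.9 points (adjusted p = 0.012), and by -9.32 points, under the size asked for, without line 41 with H3B-8800. The 21-nt exon 3 was at 91.5%, 94.6% and 94.9% with H3B-8800 and at 100% in each DMSO library, -6.33 points (adjusted p = 0.0087), below the size of a call.

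Of the 11 tested introns of FCRL3, introns 5, 9, 6 and 14 changed most, and the other called intron, the 464-nt intron 4, changed by 13.2 points. The 1728-nt intron 13, which precedes the 32-nt exon, missed the read minimum in line 15b with DMSO, at 9.8 reads, and was not tested. It was at 39.0%, 40.4% and 47.2% in lines 41, 38 and 15b with H3B-8800 and 9.22%, 7.55% and 7.69% with DMSO, a mean of 42.2% with H3B-8800 and 8.15% with DMSO, further apart than in any tested intron of the gene. Intron 5 (234 nt) was already partly retained without the drug, at 60.2%, 48.9% and 51.7% in lines 41, 38 and 15b with H3B-8800 and 28.9%, 22.9% and 30.8% with DMSO (26.1 points, adjusted p = 0.00552). Intron 9 (337 nt), which follows exon 9, was at 32.2%, 31.9% and 21.8% with H3B-8800 and 5.47%, 6.01% and 0% with DMSO (24.8 points, adjusted p = 0.000511). Intron 6 (812 nt) was at 34.6%, 29.9% and 22.7% with H3B-8800 and 12.9%, 7.46% and 13.3% with DMSO (17.8 points, adjusted p = 0.01). Intron 14 (85 nt), which follows the 32-nt exon, was at 21.4%, 15.5% and 18.0% with H3B-8800 and 2.45%, 1.83% and 0% with DMSO (16.9 points, adjusted p = 0.000198). In introns 5, 6, 9, 13 and 14 the H3B-8800 values lay above all DMSO values. The 76-nt intron 1 went the other way, with a mean of 21.6% with H3B-8800 and 36.5% with DMSO. Its retention was lower with H3B-8800 in lines 41 and 15b but not in line 38. This intron was not tested either, since line 15b had 3.0 reads with H3B-8800 and 8.0 with DMSO. Without both samples of line 41, introns 4 and 6 missed the threshold at adjusted p of 0.0519 and 0.0715. Intron 14 had 13 to 238 reads per library, and the value of 0% in line 15b with DMSO rests on 13 of them.

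Each called exon of FCRL3 had a called intron beside it: introns 4 and 5 flank exon 5, introns 5 and 6 flank exon 6, intron 9 follows exon 9 and intron 14 follows exon 14. Unspliced reads were 27.1% ± 3.43 of intron-spanning FCRL3 reads in K700E with H3B-8800 and 13.7% ± 1.88 with DMSO (SD, n = 3), a higher share than the 12.1% and 2.01% of FCER2. A 1826-nt intron at the 3′ end of the gene carried much of this sum, at 98.2%, 92.4% and 88.6% retained with H3B-8800 and 85.3%, 80.9% and 87.5% with DMSO, and it was not tested because its ends were unbalanced. Without it the FCRL3 share was 20.2% ± 2.70 with H3B-8800 and 6.52% ± 0.95 with DMSO. Intron 14 and intron 5 are printed whole from the GENCODE transcripts on hg38, minus strand, with the first and last pair of bases in capitals, as the shortest called intron of these genes and the most retained of the called ones.
FCRL3 intron 14, chr1:157678857-157678941: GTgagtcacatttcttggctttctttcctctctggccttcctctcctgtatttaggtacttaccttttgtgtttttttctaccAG
FCRL3 intron 5, chr1:157697425-157697658: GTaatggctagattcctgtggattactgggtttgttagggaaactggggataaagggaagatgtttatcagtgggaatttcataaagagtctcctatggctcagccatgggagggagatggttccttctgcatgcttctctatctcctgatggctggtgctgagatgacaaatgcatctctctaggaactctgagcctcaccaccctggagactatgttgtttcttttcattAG
Of the 20 bases before the final AG, 17 are pyrimidines in intron 14 and 16 in intron 5.

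The 2 smallest FCRL3 exons have counterparts in the related genes. A 21-nt exon near the start of the coding sequence is present in FCRL3, FCRL5, FCRL2 and FCRL1, with 6 of 21 positions shared by all 4 (capitals) and pairwise identity of 52.4% to 66.7%.
FCRL3 exon 3, chr1:157699692-157699712: cTcCtggaagaGaACaatcaG
FCRL5 exon 2, chr1:157549560-157549580: cTcCtgtcagtGgACagtttG
FCRL2 21-nt exon, chr1:157775775-157775795: aTgCagtcactGaACaggcaG
FCRL1 21-nt exon, chr1:157807102-157807122: cTcCactctgtGaACctgccG
The 32-nt exon of FCRL3 matches an exon of the same length in FCRL5 at 12 of 32 positions (37.5%), shown in capitals.
FCRL3 exon 14, chr1:157678942-157678973: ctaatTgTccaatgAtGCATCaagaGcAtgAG
FCRL5 exon 16, chr1:157515842-157515873: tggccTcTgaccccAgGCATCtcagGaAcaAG
The 21-nt exon of FCRL5 was included at 86.9%, 100% and 94.9% in K700E lines 41, 38 and 15b with H3B-8800 and 99.5%, 100% and 96.6% with DMSO (-4.79 points, adjusted p = 0.199). In this exon FCRL5 overlapped between treatments, where FCRL3 did not. A difference between the genes was not tested.

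**Figure D3:**
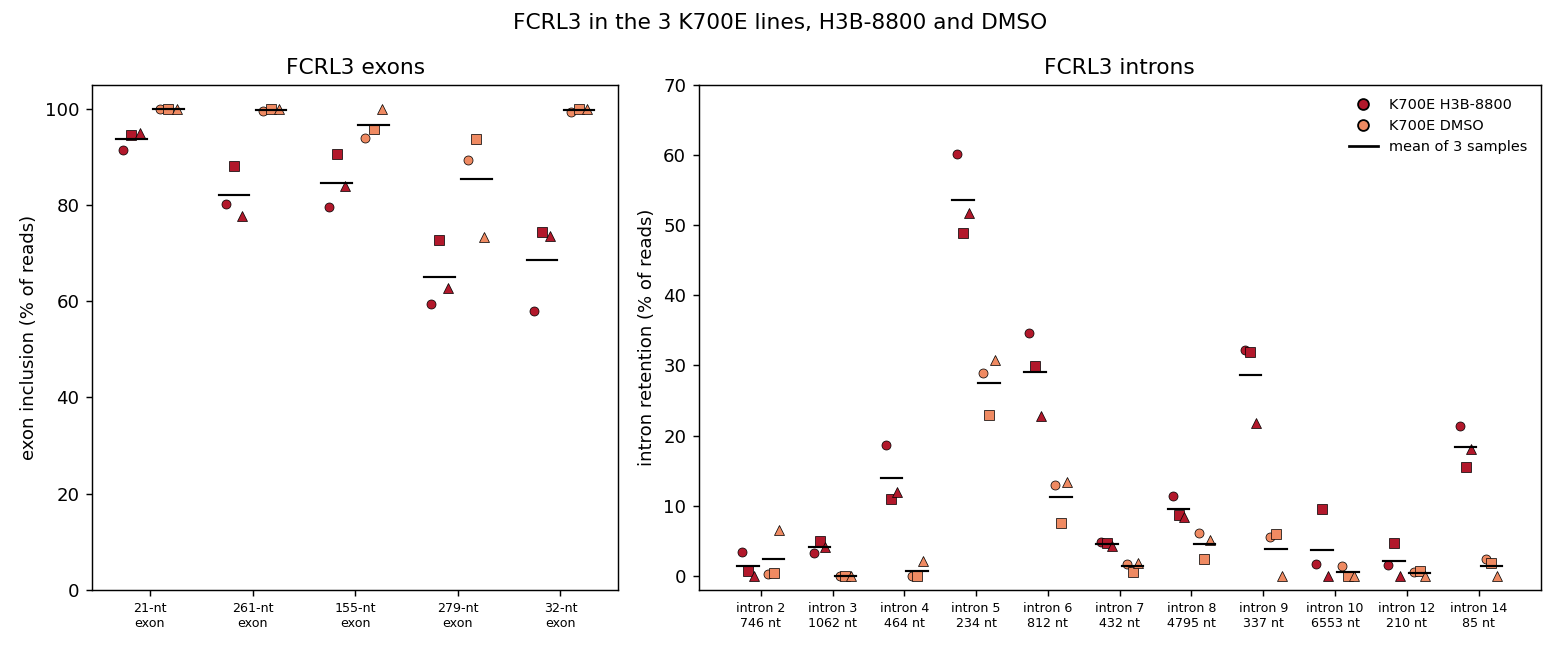
Inclusion of FCRL3 exons and retention of FCRL3 introns in percent in the 3 K700E lines with H3B-8800 and with DMSO (circles line 41, squares line 38, triangles line 15b, bars the mean of 3 samples). The 32-nt exon lies between 58.0% and 74.4% with H3B-8800 and at 99.5% or above with DMSO, and the called introns lie higher with H3B-8800 in every line.

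FCRLA showed small changes of the same direction in both genotypes. Its 267-nt exon 3 was included at 79.4%, 85.2% and 85.9% in K700E lines 41, 38 and 15b with H3B-8800 and 94.4%, 94.3% and 91.0% with DMSO. In WT lines a, b and 34b it was at 86.9%, 86.1% and 87.0% with H3B-8800 and 94.1%, 95.9% and 92.9% with DMSO. No H3B-8800 library reached a DMSO library, but the differences of -9.72 points (adjusted p = 0.00146) and -7.65 points (adjusted p = 0.00195) were below 10 points. In K700E it passed 10 points in 3 of 14 alternatives.

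The FCRLA introns were retained more with H3B-8800 in every tested case. Intron 2 (295 nt) changed by 5.55 points in K700E and 5.38 in WT, intron 4 (866 nt) by 3.91 and 2.27, intron 3 (459 nt) by 2.97 and 2.10, and intron 1 (3416 nt) by 3.84 in WT, all with an adjusted p under 0.05 and none called. Summed over its introns, 7.24% ± 0.80 of FCRLA reads were unspliced in K700E with H3B-8800 and 3.28% ± 0.47 with DMSO, against 6.33% ± 1.96 and 2.93% ± 0.60 in WT (SD, n = 3 each). An 18-nt exon averaged 19.4% in K700E with H3B-8800, 18.7% in K700E with DMSO, 19.1% in WT with H3B-8800 and 17.1% in WT with DMSO, and no difference was detected.

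FCRL5 had no called event in 12 tested in K700E and 4 in WT, at 10 to 359 reads per K700E library. Over all genes, 30.6% of events in K700E and 32.1% in WT were called. Its unspliced share was 9.82% ± 1.83 in K700E with H3B-8800 and 7.60% ± 0.52 with DMSO, and 6.56% ± 1.33 in WT with H3B-8800 and 10.3% ± 1.87 with DMSO (SD, n = 3 each). The share was thus higher with H3B-8800 in 3 of 3 K700E lines and lower in 3 of 3 WT lines. These shares rest on 3.0 to 24.5 unspliced reads per WT library. In K700E, a 2986-nt intron held more of the unspliced reads than any other. Without it the shares were 6.98%, 6.39% and 5.04% in K700E lines 41, 38 and 15b with H3B-8800. With DMSO they were 6.27%, 5.34% and 5.11%, so line 15b no longer moved up. In WT, the 6718-nt intron 8 held slightly more unspliced reads than the 2986-nt intron. Whether the lower WT shares with H3B-8800 depend on intron 8 was not tested. The 6718-nt intron 8 averaged 16.2 points less with H3B-8800 in WT, with an adjusted p of 0.0793. The largest difference of any FCRL5 event was in the 117-nt exon 12 with DMSO, at 91.4%, 75.6% and 38.2% in K700E lines 41, 38 and 15b and 100%, 93.3% and 100% in WT lines a, b and 34b. All K700E values were below all WT values, but with 11 to 140 reads per library the difference of -29.4 points had an adjusted p of 0.277.

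**Figure D4:**
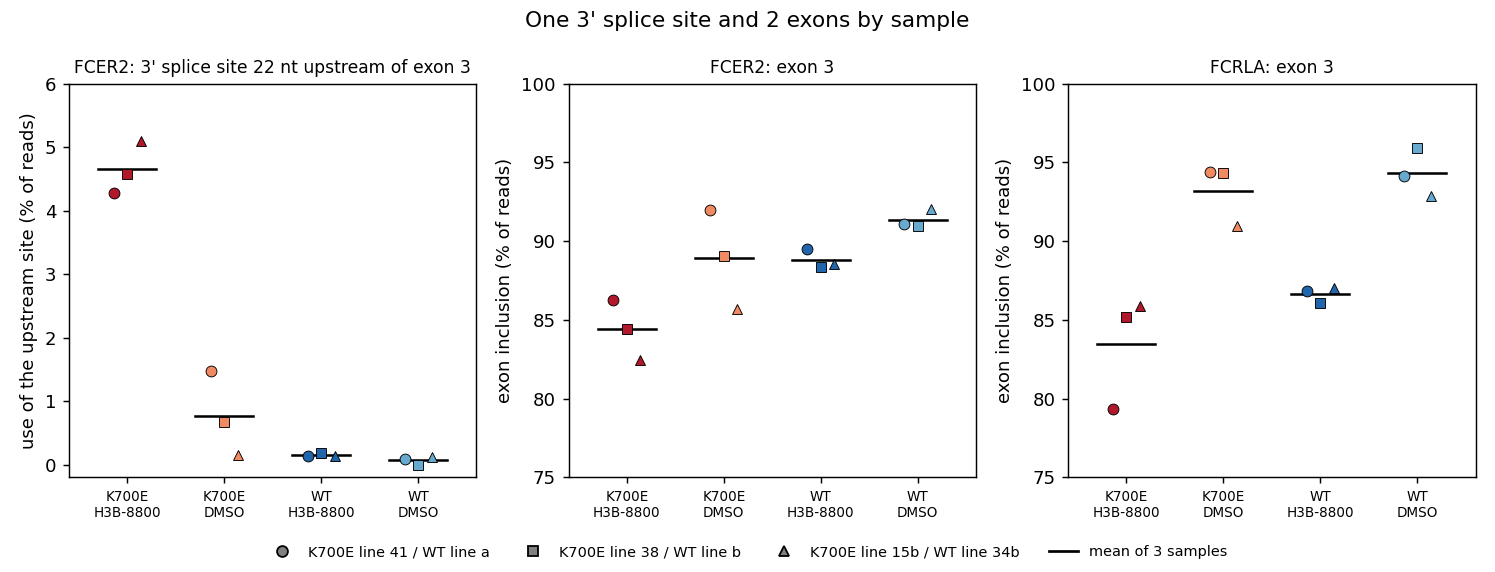
Use of the 3′ site 22 nt upstream of FCER2 exon 3, inclusion of FCER2 exon 3 (114 nt) and inclusion of the 267-nt FCRLA exon, in percent, one point per library in the 4 groups, with the exon panels drawn from 75% to 100%. The upstream site lies between 4.28% and 5.10% in K700E with H3B-8800 and at or below 1.47% elsewhere, and the FCRLA exon is lower with H3B-8800 in both genotypes.

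Between genotypes, no event of these genes was called. With DMSO 0 of 28 events were called, against 0.583% of 92975 events over all genes, and 3 had an unadjusted p under 0.05. Those 3 were 2 of 12 exons and 1 of 2 alternative 3′ sites, with 0 of 13 introns. Over all genes it was 4761 of 35187 exons, 2555 of 12454 such sites and 4054 of 35732 introns. With H3B-8800 0 of 25 were called, against 0.497% of 129709, and 2 had an unadjusted p under 0.05. Those 2 were 1 of 11 exons and 1 of 2 alternative 3′ sites, with 0 of 11 introns. Over all genes it was 4989 of 53725 exons, 3057 of 13737 such sites and 4634 of 52792 introns. The difference of the H3B-8800 effect between genotypes was called in 0 of 25, against 0.0108% of 120485, with 0 at an unadjusted p under 0.05. Over all genes, 4174 of 50223 exons and 3052 of 49300 introns had such a p. A limma fit on percentage points also gave 0 calls in each, as did a fit with the line as a block for the difference of the effect. Only the comparison with DMSO could have given a call, since the others held no difference of 10 points. Their values spanned -4.40 to 7.47 points with H3B-8800 and -2.86 to 5.72 for the difference of the effect. The FCER2 114-nt exon 3 averaged 84.4% ± 1.91 in K700E and 88.8% ± 0.622 in WT with H3B-8800, and 88.9% ± 3.13 in K700E and 91.4% ± 0.618 in WT with DMSO (SD, n = 3 each). Beside the lower level of FCER2 in K700E, its intron 6 averaged 23.9% ± 2.09 in K700E and 22.1% ± 6.35 in WT with H3B-8800, and 3.34% ± 0.161 in K700E and 4.07% ± 0.517 in WT with DMSO (SD, n = 3 each).

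Genes around these receptors were read from lists, on spliced reads in RPM, and called by limma where the Benjamini-Hochberg adjusted p over 10182 genes was under 0.05. A list of 16 signalling partners of FCRL receptors included CD79A and CD79B, which are chains of the B-cell receptor. All 16 were tested, and 8 fell and 1 rose with H3B-8800 in K700E, where 35.8% of all genes fell and 16.2% rose. In WT 10 fell and 1 rose, against 40.8% and 18.5%. The median of the list was -0.52 in K700E and -0.72 in WT on the log2 scale, against -0.22 and -0.28 over all genes. With the line as a block, 12 fell and 3 rose in K700E, and under median-of-ratios scaling 8 fell and 3 rose in K700E and 8 fell and 4 rose in WT. The members that fell most were DOK3, an adaptor that restrains B-cell receptor signalling, SYK, the kinase that binds phosphorylated tyrosine motifs, and VAV1, a guanine nucleotide exchange factor.

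DOK3 averaged 3.44 ± 2.50 RPM in K700E with H3B-8800 and 12.1 ± 5.41 with DMSO (log2 difference -1.95, SE 0.44, adjusted p = 0.00333), and changed by -2.31 in WT. With unspliced reads added, the K700E value was -0.67 with an adjusted p of 0.18, and 72.8% ± 4.63 of DOK3 reads were unspliced with H3B-8800 against 32.1% ± 3.99 with DMSO (SD, n = 3). SYK changed by -1.07 in K700E (adjusted p = 0.0215) and -1.44 in WT, and in K700E it missed the threshold without line 38 with H3B-8800 (-0.76, adjusted p = 0.086) or without line 41 with DMSO (-0.81, adjusted p = 0.0812). VAV1 changed by -1.03 in K700E and -1.41 in WT and was called in all 13 alternatives of each. GRB2, an adaptor named after its value was seen as the 1 member that rose, changed by 0.40 in K700E and 0.42 in WT.

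Of 20 genes around CD23 (its ligand CR2, the sheddase ADAM10, IL-4 receptor, JAK-STAT, NOTCH2 and CD40 pathway genes), 6 fell and 1 rose with H3B-8800 in K700E, where 35.8% of all genes fell and 16.2% rose. In WT 6 fell and 3 rose, against 40.8% and 18.5%. The list's median was -0.10 in K700E and -0.08 in WT, against -0.22 and -0.28 over all genes. With the line as a block, 9 fell and 4 rose in K700E and 9 fell and 5 rose in WT, and under median-of-ratios scaling 4 fell and 2 rose in K700E and 3 fell and 3 rose in WT. CD40, a receptor that drives CD23 expression, fell most in WT: it had 19.9, 31.2 and 31.8 RPM in K700E with H3B-8800 against 77.2, 96.2 and 105.8 with DMSO, and 13.9, 10.5 and 9.66 RPM in WT with H3B-8800 against 71.4, 62.9 and 60.2 with DMSO. JAK3 and STAT6, which carry the IL-4 signal, changed by -1.88 and -1.01 in K700E and by -2.34 and -1.48 in WT. RBPJ, the DNA-binding partner of NOTCH, rose by 0.85 in K700E. In WT, RBPJ rose by 0.95, PAX5 by 0.44 and RELA by 0.35, the last in 7 of 13 alternatives.

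With DMSO, 1 of these 20 genes differed between genotypes, RBPJ, which was higher in K700E by 0.85 (adjusted p = 0.0137), where 2.91% of all genes were higher and 1.95% lower. Without line a or line b with DMSO its adjusted p was 0.0573 or 0.0724. With H3B-8800, 4 were higher and 1 lower in K700E, where 11.1% of all genes were higher and 3.09% lower. CD40 was higher by 1.27 (adjusted p = 0.00396), TYK2, a kinase of cytokine receptors, by 0.97 (adjusted p = 0.0163), RBPJ by 0.76 and its coactivator MAML1 by 0.53, and the B-cell factor PAX5 was lower (-0.55). TYK2 was not called without line a with H3B-8800 (adjusted p = 0.0668) or without both samples of line 34b (adjusted p = 0.0635), and MAML1 was called in 6 and PAX5 in 9 of 13 alternatives. The median of the list was 0.38 with H3B-8800 and 0.35 with DMSO, against 0.12 and 0.07 over all genes. The 16 signalling genes gave 0 calls with DMSO and, with H3B-8800, VAV1 higher (0.53), the phosphatase gene PTPN11 lower (-0.66) and the kinase gene LYN lower (-0.43, called in 7 of 13 alternatives).

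Among 16 other Fc receptor family genes, 6 were read deeply enough to test. FCRL4, an inhibitory FCRL receptor, had 2.29, 2.51 and 2.82 RPM in K700E with H3B-8800 and 8.77, 5.94 and 7.77 with DMSO (log2 difference -1.54, SE 0.51, adjusted p = 0.026), and 1.99, 1.62 and 0.44 RPM in WT with H3B-8800 against 8.45, 6.90 and 3.24 with DMSO (-2.34, adjusted p = 0.00226). The WT call held in 13 of 13 alternatives and the K700E call in 6, with an adjusted p of 0.053 under median-of-ratios scaling and 0.119 without both samples of line 41. PIGR, the polymeric immunoglobulin receptor, was lower in K700E than in WT with H3B-8800 (log2 difference -1.81, adjusted p = 0.0465), and was called in 4 of 13 alternatives.

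Some markers of cell state also differed between genotypes or with H3B-8800, and their part in the results was not tested. PRDM1, the plasma-cell regulator, had 34.9, 22.6 and 42.4 RPM in K700E with H3B-8800 against 4.60, 5.83 and 7.15 in WT, and 18.7, 13.4 and 33.6 RPM in K700E with DMSO against 2.68, 3.10 and 4.83 in WT. That is 2.48 (adjusted p = 0.0028) and 2.57 (adjusted p = 0.00379) log2 units higher in K700E, in every sample, while the other 6 plasma-cell markers gave no call between genotypes. Over all genes, 23.9% had every K700E sample higher with H3B-8800 and 21.2% with DMSO. Called higher and lower in K700E were 11.1% and 3.09% of all genes with H3B-8800, and 2.91% and 1.95% with DMSO. Of 14 tested B-cell markers, the tetraspanin gene CD37 was lower in K700E with DMSO (-0.85, adjusted p = 0.0288, called in 7 of 13 alternatives). With H3B-8800, CD37 and PAX5 were lower in K700E and the kinase gene BLK higher (0.90, adjusted p = 0.0368, called in 8 of 13). With H3B-8800, 4 of the 14 B-cell markers fell in K700E, among them CD79B (-0.97) and TNFRSF13B (-0.77), and 5 fell in WT, among them CD79B (-1.18) and TNFRSF13B (-1.08), while PAX5 rose, against the 35.8% and 40.8% of all genes that fell. Under median-of-ratios scaling 1 fell (CD79B) and 2 rose (MS4A1 and CD79A) in K700E, with TNFRSF13B at an adjusted p of 0.0528, and 5 fell and 3 rose in WT. With the line as a block, 8 fell and 3 rose in K700E and 8 fell and 4 rose in WT. The plasma-cell gene MZB1 fell by 1.16 in K700E, and XBP1 rose by 0.64 and COL1A1 by 0.91 in WT, in 12 and 7 of 13 alternatives. The 3 tested T and NK cell markers and the 1 tested myeloid marker gave 0 calls in each comparison. With the line as a block, the myeloid marker CD68 was called lower with H3B-8800 in both genotypes (-0.98 in K700E and -0.41 in WT, adjusted p = 0.149 and 0.531 without the block) and the T-cell receptor gene TRAC lower in WT (-0.25). GNLY, a granule protein gene of NK cells, was called lower in K700E than in WT under both treatments without both samples of line 34b. The same held with the replicate number as a block, which joins unrelated lines. Over all lines without a block, GNLY differed by -1.54 with H3B-8800 and -1.57 with DMSO (adjusted p = 0.106 and 0.153).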

How the data were processed

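Stranded libraries were made from poly(A) RNA of 12 MEC1 samples, per the labels' protocols, and the submitters' processing notes name cutadapt 2.4 and hg38. The sources used here name no aligner or event caller. The authors deposited inclusion levels in percent per event and sample, beside text columns with read numbers. Another 36 columns of single runs, with 36 text columns, were not used. The 6 genes, the lists and the rules for naming genes (up to 4 events per gene and comparison, up to 3 genes per list, 3 most alike genes) were chosen with earlier results of these data known. One B-cell marker that the naming rule would give is not reported here.

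Events were fitted with limma 3.58.1 in R 4.3.3 on log2 of inclusion over exclusion reads, 0.5 added to each, over 4 groups in one fit. An event was tested with at least 10 reads in all samples compared and a mean level between 1% and 99%. Introns with balance p under 0.05 in most of the samples compared, and site 1 of alternative sites, were left out. Spliced reads per gene are exon-exon reads of annotated introns, in RPM of all such reads, fitted as log2 with 0.5 reads added for the 10182 genes averaging 50 reads or more. P-values were two-sided and adjusted by Benjamini-Hochberg. Fits were tested on simulated data. Read numbers are corrected by the caller and have no molecular identifiers, so floors cover counting error only.

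The same line was treated with H3B-8800 and DMSO, which pairs the samples within a genotype: the deviations of genes from the group means correlated at 0.658 to 0.925 in 6 same-line pairs and at -0.655 to 0.27 in 48 other pairs. Replicate numbers pair nothing between genotypes.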

Additional observations from a re-analysis of the deposited data

Results flagged for a closer look

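The share of unspliced reads of FCRL5 moved in opposite directions with H3B-8800 in the 2 genotypes. It was higher with H3B-8800 than with DMSO in K700E lines 41, 38 and 15b, by 2.32, 0.08 and 4.24 percentage points, and lower in WT lines a, b and 34b, by -3.81, -0.50 and -6.91 points. The mean effect in K700E minus that in WT was 5.95 points. The difference was not tested, line 38 hardly moved, and FCRL5 had 54 to 266 spliced reads and 3.0 to 24.5 unspliced reads per WT library. In K700E, a 2986-nt intron held more of the unspliced reads than any other. Without it, the share in line 15b was 5.04% with H3B-8800 and 5.11% with DMSO. In WT, the 6718-nt intron 8 held slightly more of them, and the WT shares without intron 8 were not examined.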

How the results depend on the processing

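No called value changed sign under any alternative. The log2 difference of FCER2, FCRL3, FCRL5 and FCRLA moved by less than the spread between replicates in each. Some small differences took either sign when 1 sample was left out. These were FCRLA between genotypes (-0.26 to 0.99 with DMSO), all 4 genes with H3B-8800 in K700E, and FCER2 with H3B-8800 in WT (-0.40 to 0.01). Leaving out 1 sample keeps its line in 1 treatment only, so such a value with H3B-8800 mixes line and drug. Without both samples of line 41, H3B-8800 minus DMSO in K700E was -0.50 for FCRL5, -0.18 for FCRLA, -0.15 for FCRL3 and -0.01 for FCER2. With 20 reads asked for per sample, 7 of 35 events of the 6 genes were called in K700E with H3B-8800, against 14 of 57, since fewer FCRL3 events were tested. Leaving out 1 sample gave 12 to 15 calls in K700E and 3 to 5 in WT. Leaving out both samples of line 41 or of line 34b was chosen after seeing the data. The FCRL3 279-nt exon had an adjusted p of 0.0594 when percentage points were tested.

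Over all genes, K700E against WT with H3B-8800 gave 645 events, but 2476 in a test of percentage points and 1136 with precision weights. The difference of the drug effect gave 13 events, 551 in a test of points, 0 with weights, 0 with the line as a block, 0 to 14 when 1 sample was left out, 0 without line 41 and 1 without line 34b. The causes were not tested. Genes called with H3B-8800 in K700E were 5294, and 7975 with the line as a block. K700E against WT with DMSO gave 495 genes, 1021 with the number as a block, 104 to 366 with 1 sample left out and 139 without line 34b. With H3B-8800 it gave 1448, 697 to 1791 with 1 sample left out and 416 without line 34b. The difference of the drug effect gave 5 genes, 3 with unspliced reads added, 616 with the block, 0 to 5 with 1 sample left out, and 0 without line 41 or line 34b. The replicate block, which between genotypes joins unrelated lines of the same number, changed no call among the events of the 6 genes between genotypes. With H3B-8800 it could not have, since no difference there reached 10 points.

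Median-of-ratios scaling moved the median gene to about 0 and the split of calls: 2691 higher and 2670 lower in K700E with H3B-8800 (1653 and 3641 by total reads), 2978 and 2984 in WT (1888 and 4154), 232 and 280 for K700E against WT with DMSO (296 and 199), and 646 and 612 with H3B-8800 (1133 and 315). FCRL1, FCRL2 and, in WT, FCRL3 had too few reads for any event to be tested.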
